A study of Mus musculus with 12 samples.

Results

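Transcripts of 10 stimulus-responsive transcription factors were followed in mpkCCD cells, an immortalised line that keeps features of the mouse cortical collecting duct. The 10 genes were chosen by name as the FOS family (Fos, Fosb, Fosl1 and Fosl2), the JUN family (Jun, Junb and Jund), Egr1, Atf3 and Myc, and all 10 had a row among the 52015 genes used. The 12 RNA-seq libraries came from cells kept for 5 days in isotonic medium (300 mosmol/kg) or in medium brought to 600 mosmol/kg with 100 mM NaCl and 100 mM urea. Scr_300 and Scr_600 were controls that carried a scramble guide RNA and are labelled WT, with 2 libraries each. Nfat5-KO_300 and Nfat5-KO_600 were cells in which Nfat5, the transcription factor that drives osmoprotective genes, had been deleted with CRISPR/Cas9, with 4 libraries each, 2 from clone N1 and 2 from clone N3.

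The deposited values give 1 FPKM (fragments per length of the gene and per number of mapped reads) per gene for each of the 4 groups. No value per library or per clone was analysed here, so no SD, no p-value and no interval could be calculated, the depth of the libraries is unknown, and every difference below is a description with no replicate check. Whether neighbouring groups in an order of levels differ beyond the spread between cultures could not be judged for any gene. The Nfat5-KO cells came from clones N1 and N3, and the Scr cells were made separately. A difference between genotypes therefore cannot be told apart from a difference that arose with the clones. Differences between groups are log2 ratios after 0.1 was added to each FPKM, a step that shrinks the change of low genes. They were taken over genes with at least 0.5 FPKM in 1 of the groups compared. Of the 10 genes 9 passed this filter in every comparison, and Fosb passed it in none. In bulk RNA, fewer cells with a transcript and less transcript per cell cannot be told apart.

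AP-1 is a dimer of basic leucine zipper proteins. JUN proteins pair with each other or with FOS proteins, FOS proteins need a JUN partner, and ATF3 pairs with JUN proteins and with itself. Most of these genes, like Egr1 and Myc, belong to the immediate early genes, which growth factors and stress switch on within minutes through MAP kinases and which usually fall back soon after. The values here were taken after 5 days, long past that first response. EGR1 is a zinc finger activator that is restrained by the corepressors NAB1 and NAB2, and MYC binds E-boxes with its partner MAX and drives growth and ribosome production.

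Nfat5 itself, on chromosome 8 (GRCm38, as for all positions below) from 107293470 to 107379517, was at 5.61 FPKM in Scr_300 against 7.93 FPKM in Scr_600, and 3.47 FPKM in Nfat5-KO_300 against 6.88 FPKM in Nfat5-KO_600. A small CRISPR deletion can leave the transcript in place, so the FPKM of the whole gene does not check the loss of the protein. All 6 epithelial markers passed the 0.5 FPKM filter, with a summed level between 1098 FPKM in Nfat5-KO_600 and 1807 FPKM in Scr_300. Among 12 principal cell markers 5 reached 0.5 FPKM. Aqp2, the water channel that defines these cells, was not above 0.245 FPKM in any group, and the vasopressin receptor gene Avpr2 was not above 0.0193 FPKM. The summed principal cell markers were 10.1 and 9.64 FPKM in isotonic and hypertonic Scr cells, and 20.7 and 47.0 FPKM in the matching Nfat5-KO groups. Gata3 made up most of the sum in Nfat5-KO cells, with 11.8 and 30.04 FPKM there against 3.41 and 4.33 FPKM in Scr cells. Hsd11b2 was also higher there, with 1.95 and 6.18 FPKM against 0.383 and 0.655 FPKM in Scr cells. Scnn1a had 3.56 and 7.03 FPKM in isotonic and hypertonic Nfat5-KO cells against 2.95 and 1.31 FPKM in Scr cells. Aqp3 stayed between 2.07 and 2.93 FPKM, and Kcnj1 was highest in Scr_600 at 0.725 FPKM. Markers of intercalated cells, thick ascending limb, fibroblasts, endothelium and blood cells were all under 0.5 FPKM in every group. Of 5 proximal tubule markers only Lrp2 reached it, with 1.07 FPKM in Nfat5-KO_600. The part of these markers in the results below was not tested.

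AP-1 and ATF/CREB factors bind short, related sequences, and some of these genes carry such letters at their own start. RefSeq windows (GRCm38.p6) of the 250 bases before the start were at hand for 7 of the 10 genes, all but Fosl1, Egr1 and Myc. The 7-base AP-1 site TGANTCA, read on both strands, was in none of the 7 and in 6.75% of all 32851 windows. The 8-base form TGANNTCA was in the windows of Jun and Jund (11.9% of all windows), and the core of the cyclic AMP response element, TGACGT, in those of Fos and Atf3 (6.47%). The last 2 searches can find the same letters. The core of the NFAT5 site, TGGAAA, was in none of the 7 and in 18.6% of all windows, and the E-box CACGTG in none and in 6.02%. The RefSeq start of Jund lies upstream of the GENCODE gene model, and that of Atf3 lies inside it. The stretches around the matches of Fos (chr12:85473794-85473859, plus strand), Jun (chr4:95052230-95052297, minus strand) and Atf3 (chr1:191183334-191183371, minus strand) are shown because a FOS, a JUN and an ATF gene each carry a variant of the letters this family reads. Each runs 5′ to 3′ along the gene, with the match in capitals, which in Atf3 is the core read on the other strand.
Fos: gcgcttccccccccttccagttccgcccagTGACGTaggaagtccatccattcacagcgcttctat
Jun: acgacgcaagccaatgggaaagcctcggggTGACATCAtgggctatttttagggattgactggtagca
Atf3: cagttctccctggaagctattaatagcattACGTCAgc
The match lies 61 to 66 bases before the start in Fos, 38 to 45 in Jun and 3 to 8 in Atf3. These are matches of letters, with no measurement of binding.

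The main differences lay with Egr1 and Fosl1. Egr1 was lower in Nfat5-KO cells at both osmolalities, by 3.94-fold on FPKM in isotonic medium and by 8.17-fold in hypertonic medium. Fosl1 was 2.94-fold higher in Nfat5-KO_300 than in Scr_300, and in Nfat5-KO cells it was 3.32-fold lower in hypertonic than in isotonic medium. No other gene of the 9 compared differed 2-fold in any comparison. Among these 9 genes, 2 were at least 2-fold changed in Nfat5-KO_300 against Scr_300, Fosl1 upward and Egr1 downward. Of all 12704 genes compared there, 4.17% were, 1.73% upward and 2.44% downward. The count was 1 of 9 in Nfat5-KO_600 against Scr_600, Egr1 downward, beside 7.44% of 13063 genes (3.76% upward and 3.68% downward). In Scr_600 against Scr_300 it was 0 of 9, beside 7.67% of 12929 genes (4.81% upward and 2.86% downward). In Nfat5-KO_600 against Nfat5-KO_300 it was 1 of 9, Fosl1 downward, beside 10.4% of 12982 genes (6.25% upward and 4.11% downward).

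**Figure D1:**
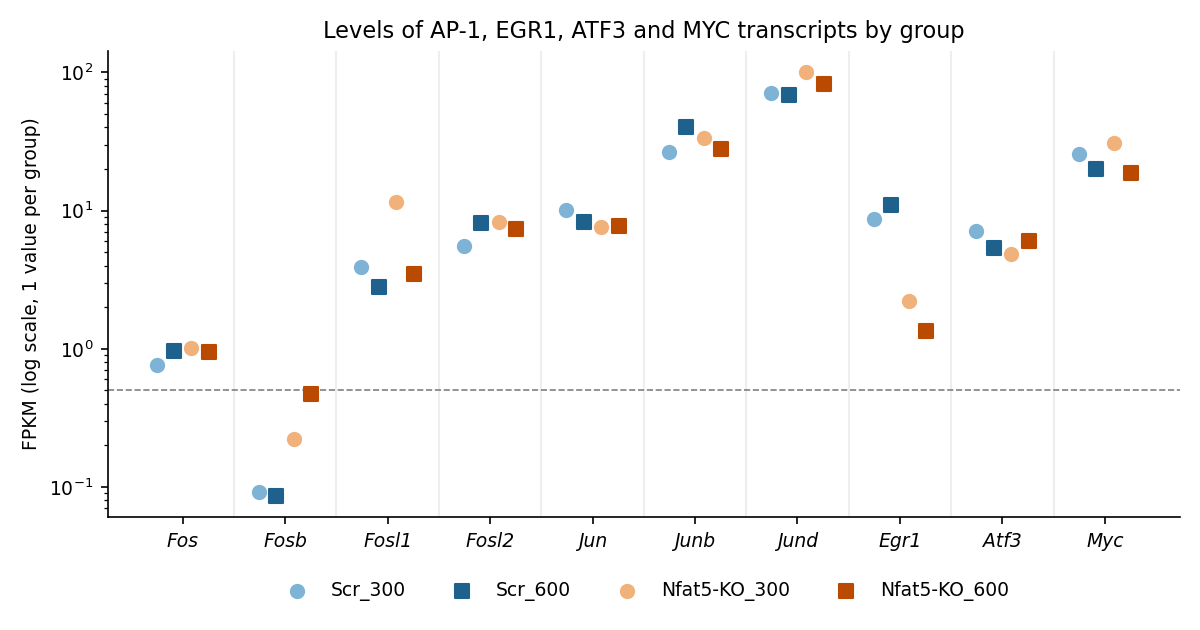
FPKM of the 10 genes on a log axis, with 1 point for each of the 4 groups (circles 300 mosmol/kg, squares 600 mosmol/kg, blue Scr, orange Nfat5-KO) and the 0.5 FPKM filter as a dashed line. Egr1 separates by genotype, Fosl1 stands out in Nfat5-KO_300 at 11.5 FPKM, and Fosb lies under the filter in every group.

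Egr1, on chromosome 18 from 34859823 to 34864984, encodes the zinc finger factor that growth factors, stretch and stress induce through serum response factor. Its level was 8.68 FPKM in Scr_300 against 11.0 FPKM in Scr_600, and 2.20 FPKM in Nfat5-KO_300 against 1.35 FPKM in Nfat5-KO_600. Both Scr groups were thus above both Nfat5-KO groups. The log2 ratio of Nfat5-KO_300 to Scr_300 was -1.93, and 79 of the 12704 genes compared had a lower one. Under hypertonic conditions the genotypes were further apart, at a log2 ratio of -2.94, and 32 of 13063 genes had a lower one. With hypertonicity Egr1 was slightly higher in Scr cells, with a log2 ratio of 0.34, and lower in Nfat5-KO cells, with a log2 ratio of -0.67. The difference between these ratios, Nfat5-KO minus Scr, was -1.01, just past 2-fold. Of 13414 genes 7.04% were past 2-fold in this difference, 3.88% upward and 3.16% downward. The difference for Egr1 was not tested and drops to -0.76 with a pseudocount of 1.

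The other EGR genes stayed under the filter. Egr2 ranged from 0.0860 FPKM in Scr_300 to 0.192 FPKM in Scr_600, Egr3 from 0.0300 to 0.0753 FPKM, and Egr4 was listed at 0 in every group. Egr1 was therefore the EGR gene with the highest level per length in each of the 4 groups. The corepressor gene Nab2, which EGR factors themselves induce, had 5.77 and 7.62 FPKM in isotonic and hypertonic Scr cells, and 4.73 and 3.59 FPKM in the matching Nfat5-KO groups, so that its groups stood in the same order as those of Egr1. Between the hypertonic groups its log2 ratio was -1.06 (Nfat5-KO over Scr), the only value past 2-fold among the 2 genes of the EGR and NAB list that passed the filter (3.68% of all genes were at least 2-fold lower). Nab1 followed osmolality instead, with 33.7 and 33.0 FPKM in the isotonic and 23.0 and 22.8 FPKM in the hypertonic groups of Scr and Nfat5-KO cells.

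Fosl1, on chromosome 19 from 5447547 to 5455946, encodes FRA-1, a FOS protein without the strong activation domain of FOS that accompanies migration and wound closure in epithelia. It had 3.91 FPKM in Scr_300 against 2.78 FPKM in Scr_600, and 11.5 FPKM in Nfat5-KO_300 against 3.46 FPKM in Nfat5-KO_600. Nfat5-KO_300 stood alone at the top, and the other 3 groups lay within a factor of 1.40 of Scr_300. The log2 ratio of Nfat5-KO_300 to Scr_300 was 1.53, and 72 of 12704 genes had a higher one. In hypertonic medium the corresponding log2 ratio was 0.30. Hypertonicity went with a lower level in either genotype, with log2 ratios of -0.47 (Scr) and -1.70 (Nfat5-KO). In the latter comparison 112 of 12982 genes had a lower ratio. The difference between these ratios was -1.23 and was not tested. Fosl1 overlaps Ccdc85b on the other strand, and the strand setting of the authors' counting is not given in the sources used here. Ccdc85b had 14.8 and 13.6 FPKM in isotonic and hypertonic Scr cells, and 16.3 and 11.1 FPKM in the matching Nfat5-KO groups, a much narrower range than that of Fosl1.

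Fosl2, on chromosome 5 from 32135801 to 32157842, encodes FRA-2, the closest relative of FRA-1. It had 5.53 FPKM in Scr_300 against 8.11 FPKM in Scr_600, and 8.21 FPKM in Nfat5-KO_300 against 7.35 FPKM in Nfat5-KO_600. Scr_300 was the low group, and the other 3 were close to each other. The log2 ratio was 0.56 for Nfat5-KO_300 to Scr_300 and 0.55 for Scr_600 to Scr_300. In Nfat5-KO cells the log2 ratio of hypertonic to isotonic medium was -0.16.

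Fos and Fosb, which encode the strong activators of the family and are the most transient of these transcripts, were low. Fos, on chromosome 12 from 85473890 to 85477273, had 0.764 and 0.972 FPKM in isotonic and hypertonic Scr cells, and 1.02 and 0.956 FPKM in the matching Nfat5-KO groups, so that the highest group was 1.33 times the lowest. Fosb, on chromosome 7 from 19302696 to 19310051, stood at 0.0916 FPKM in Scr_300 against 0.0858 FPKM in Scr_600, and 0.221 FPKM in Nfat5-KO_300 against 0.469 FPKM in Nfat5-KO_600. Both Nfat5-KO values of Fosb were above both Scr values, though all 4 lie under the filter. Within Nfat5-KO cells the log2 ratio of hypertonic to isotonic medium was 0.82 for Fosb. No ratio to Scr cells is given, since Fosb was under 0.1 FPKM there.

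Summed over the 4 FOS genes, the level was 10.3 and 11.95 FPKM in isotonic and hypertonic Scr cells, and 20.9 and 12.2 FPKM in the matching Nfat5-KO groups. Fosl2 made up 53.7% of this sum in Scr_300, 67.9% in Scr_600 and 60.1% in Nfat5-KO_600. In Nfat5-KO_300 Fosl1 took the first place with 54.8%, against 38.0% in Scr_300, 23.3% in Scr_600 and 28.3% in Nfat5-KO_600. Fos itself supplied between 4.87% and 8.13% and Fosb between 0.718% and 3.83%. The group with the high FOS sum was thus the group with the high Fosl1 level, and the sum of the other 3 groups differed little.

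**Figure D2:**
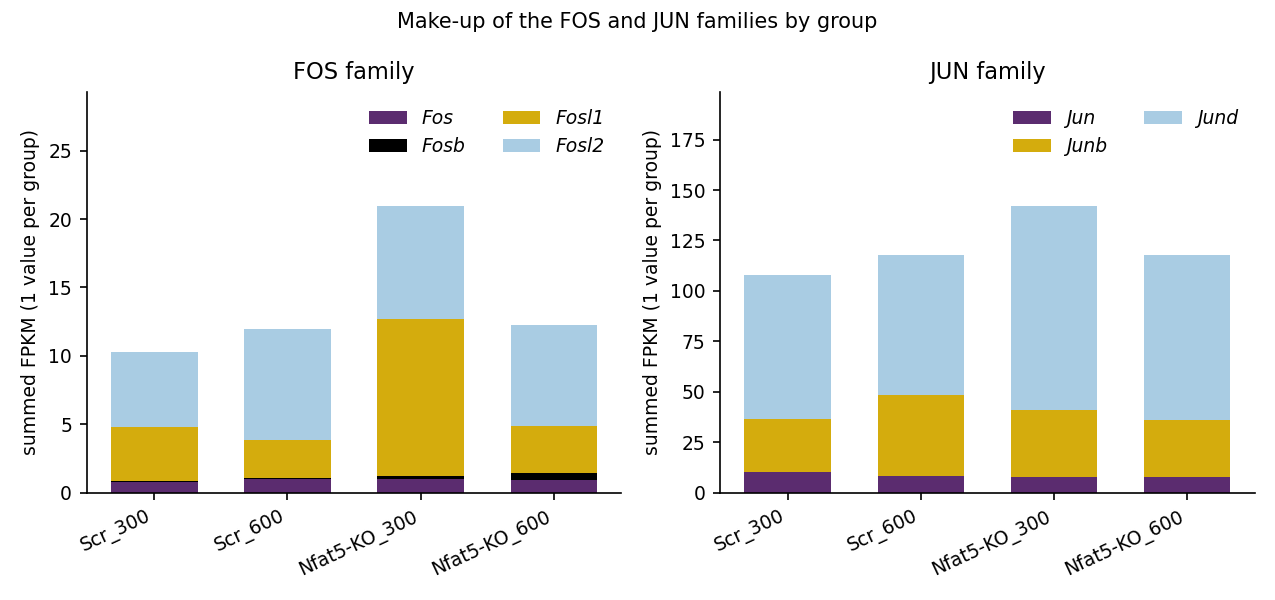
Stacked FPKM of the FOS genes (left) and the JUN genes (right) in the 4 groups, with 1 value per group and no error bars because none can be calculated. The FOS sum is highest in Nfat5-KO_300, where Fosl1 is the largest segment, and Jund is the largest segment of the JUN sum in every group.

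Per length, Jund and Junb lay above every FOS gene in each group, while Jun lay under Fosl1 and Fosl2 in Nfat5-KO_300. Jund, on chromosome 8 from 70698949 to 70700616, encodes the JUN protein that is present in resting cells and often slows proliferation. It had 71.2 FPKM in Scr_300 against 69.2 FPKM in Scr_600, and 100.9 FPKM in Nfat5-KO_300 against 81.9 FPKM in Nfat5-KO_600. Both Nfat5-KO groups lay above both Scr groups, with log2 ratios of 0.50 in isotonic and 0.24 in hypertonic medium. Hypertonicity went with log2 ratios of -0.04 (Scr) and -0.30 (Nfat5-KO).

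Junb, on chromosome 8 from 84974484 to 84978718, encodes a JUN protein that is a weaker activator than JUN. It had 26.5 and 40.2 FPKM in isotonic and hypertonic Scr cells, and 33.4 and 28.1 FPKM in the matching Nfat5-KO groups. Scr_600 was the high group. The log2 ratio of hypertonic to isotonic medium was 0.60 in Scr and -0.25 in Nfat5-KO cells, opposite directions whose difference of -0.85 was not tested and stays under 2-fold. Between genotypes, Nfat5-KO over Scr, the log2 ratio was -0.51 at 600 mosmol/kg and 0.33 at 300 mosmol/kg. Prdx2, which overlaps Junb on the other strand, was highest in Nfat5-KO_600, at 73.1 FPKM, and lowest in Scr_300, at 62.5 FPKM. The limit of the unknown strand setting named for Fosl1 holds for Junb too.

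Jun, on chromosome 4 from 95049034 to 95052222, encodes the strongest activator of the family. It had 10.1 FPKM in Scr_300 against 8.24 FPKM in Scr_600, and 7.62 FPKM in Nfat5-KO_300 against 7.74 FPKM in Nfat5-KO_600. Scr_300 was the highest, and the largest log2 ratio in size was -0.40, for Nfat5-KO_300 to Scr_300. Junos, on the other strand of Jun, was not above 0.115 FPKM. The JUN sum was 107.8 and 117.6 FPKM in isotonic and hypertonic Scr cells, and 141.9 and 117.7 FPKM in the matching Nfat5-KO groups. Jund supplied between 58.8% and 71.1% of it, and Jun between 5.37% and 9.38%. The JUN sum was 10.5 times the FOS sum in Scr_300, 9.84 times in Scr_600, 6.78 times in Nfat5-KO_300 and 9.62 times in Nfat5-KO_600.

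Atf3, on chromosome 1 from 191170296 to 191218039, encodes a stress-induced factor that mostly represses. It had 7.11 FPKM in Scr_300 against 5.35 FPKM in Scr_600, and 4.84 FPKM in Nfat5-KO_300 against 6.04 FPKM in Nfat5-KO_600. The 2 genotypes went opposite ways with hypertonicity, with log2 ratios of -0.40 (Scr) and 0.31 (Nfat5-KO). Their difference of 0.72 was not tested. The genotypes differed by a log2 ratio of -0.55 (Nfat5-KO over Scr) in isotonic medium and 0.17 in hypertonic medium. Across the 3 genes whose promoter letters are shown above, Fos, Jun and Atf3, no group differed 2-fold from another.

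Myc, on chromosome 15 from 61985391 to 61990374, had 25.7 and 20.1 FPKM in isotonic and hypertonic Scr cells, and 30.9 and 18.8 FPKM in the matching Nfat5-KO groups. In both genotypes it was lower in hypertonic than in isotonic medium, with log2 ratios of -0.36 (Scr) and -0.71 (Nfat5-KO). Genotype made less difference, with log2 ratios of 0.26 in isotonic and -0.09 in hypertonic medium. The paralog Mycn had 4.23 FPKM in Scr_300 against 11.7 FPKM in Scr_600, and 6.83 FPKM in Nfat5-KO_300 against 7.54 FPKM in Nfat5-KO_600. In Scr cells the log2 ratio of hypertonic to isotonic medium was thus 1.45 for Mycn, opposite in sign to that of Myc, and in Nfat5-KO cells it was 0.14.

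**Figure D3:**
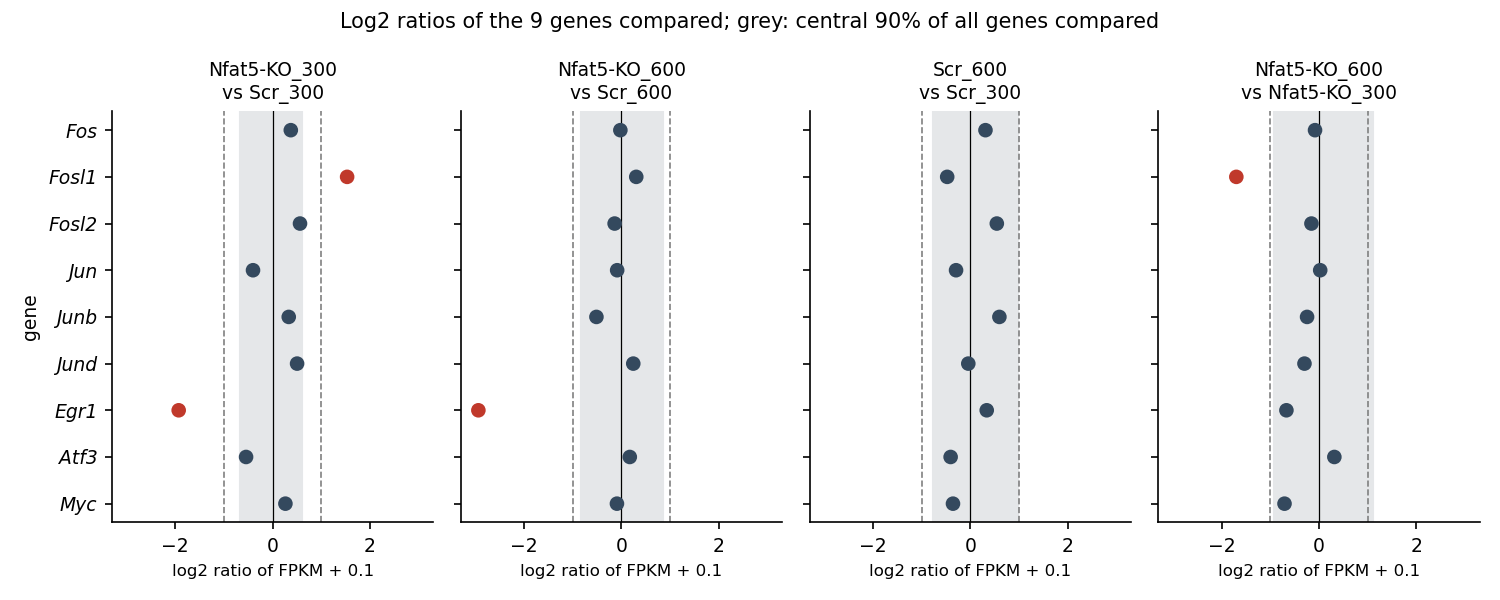
Log2 ratios of FPKM + 0.1 for the 9 genes that passed the filter in the 4 comparisons, with grey bands for the central 90% of all genes compared and dashed lines at 2-fold (red points are past it). Egr1 lies far left in both comparisons of genotype, and Fosl1 lies right in the isotonic comparison of genotype and left in the comparison of osmolality in Nfat5-KO cells.

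The 9 genes did not move as a block. In Nfat5-KO_300 against Scr_300, 6 were higher and 3 lower, and their median log2 ratio was 0.33, against 0.00 for all genes compared. In Nfat5-KO_600 against Scr_600, 3 were higher and 6 lower, with a median of -0.09 against -0.02. In Scr_600 against Scr_300, 4 were higher and 5 lower, with a median of -0.04, the same as that of all genes. In Nfat5-KO_600 against Nfat5-KO_300, 2 were higher and 7 lower, with a median of -0.25 against -0.04. The comparisons share groups with each other and are not independent. Between the genotypes, the log2 response to hypertonicity was lower in Nfat5-KO cells for 7 of the 9 genes and higher for Jun and Atf3. Of all 13414 genes 48.0% had a higher one, and the median difference was -0.40 for the 9 genes against -0.01 for all. At least 2-fold differences were reached by Egr1 and Fosl1, both downward, beside 3.16% of all genes downward and 3.88% upward. That of Egr1 was -1.01 and drops under 2-fold, to -0.76, with a pseudocount of 1.

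Only Egr1 and Fosl1, of the genes that passed the filter, had a range of at least 1 on the log2 scale over the 4 groups. Among 13414 genes, the 3 whose centred log2 values over the 4 groups were closest to those of Fosl1 were Gm4610, Gm26917 and Gm16572, at a root mean square distance of 0.10 to 0.14. For Egr1 they were Tcrg-C1, Asrgl1 and Gm23031, at 0.19 to 0.25, none of them above 0.731 FPKM in a group. Gm16572 reached the 0.5 FPKM filter only in Nfat5-KO_300, at 0.501 FPKM, and the genes closest to Egr1 only in the Scr groups. With 4 values per gene such likeness is loose.

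Genes known as targets of these factors were set beside them. Of 29 AP-1 target genes 19 passed the filter in some comparison. In Nfat5-KO_600 against Nfat5-KO_300, 14 of 19 were lower, 8 of them at least 2-fold (4.11% of all genes were), with a median log2 ratio of -0.85. In Scr_600 against Scr_300, 10 of 18 were lower, 3 of them at least 2-fold (2.86% of all genes), with a median of -0.05. This response was lower in Nfat5-KO cells for 18 of the 19, all but Hmox1, the heme oxygenase 1 gene, while 48.0% of all genes had a higher one. The difference was past 2-fold for 6 of the 18 (3.16% of all genes), and for some of the others the genotypes responded almost alike. Timp1, an inhibitor of metalloproteinases, had 16.1 and 4.68 FPKM in isotonic and hypertonic Scr cells, and 30.9 and 4.43 FPKM in the matching Nfat5-KO groups, an order like that of Fosl1 except that the hypertonic groups trade places. Cd44, the hyaluronan receptor, ranged likewise from 2.11 FPKM in Nfat5-KO_600 to 12.1 FPKM in Nfat5-KO_300, and Plau, the urokinase gene, from 33.3 to 148.6 FPKM in the same groups. Il1rl1, the interleukin-33 receptor gene, was lower in Nfat5-KO cells, with log2 ratios of -1.34 and -1.97 at 300 and 600 mosmol/kg.

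Of 30 MYC target genes 29 passed the filter. In hypertonic medium 26 of 29 were lower in Scr cells (median log2 ratio -0.26), and 26 of 29 in Nfat5-KO cells (median -0.66), where 45.4% and 47.1% of all genes were higher. At least 2-fold lower were 0 of them in Scr cells (2.86% of all genes) and 5 in Nfat5-KO cells (4.11%). One MYC target, the telomerase gene Tert, was at least 2-fold higher in Scr cells (4.81% of all genes), with 2.12 FPKM in Scr_300 and 4.64 FPKM in Scr_600. Odc1, which starts polyamine synthesis, had 138.9 and 75.0 FPKM in Scr_300 and Scr_600 and 207.4 and 75.4 FPKM in Nfat5-KO_300 and Nfat5-KO_600, and was highest in the group where Myc was highest. Ncl, the nucleolin gene, and Srm, the spermidine synthase gene, had log2 ratios of -1.24 and -1.09 in Nfat5-KO cells. Ldha, for lactate dehydrogenase A, was lowest in Nfat5-KO_600, at 98.0 FPKM, where Scr_600 had 282.6 FPKM. Between genotypes in isotonic medium the median over the 29 genes was 0.00. Of 8 genes that MYC holds down, 7 were compared, and their medians with hypertonicity were -0.12 (Scr) and 0.20 (Nfat5-KO). Among them Ndrg1 alone was at least 2-fold changed with hypertonicity, downward in Scr cells (2.86% of all genes), with 24.2 FPKM in Scr_300 and 9.01 FPKM in Scr_600.

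**Figure D4:**
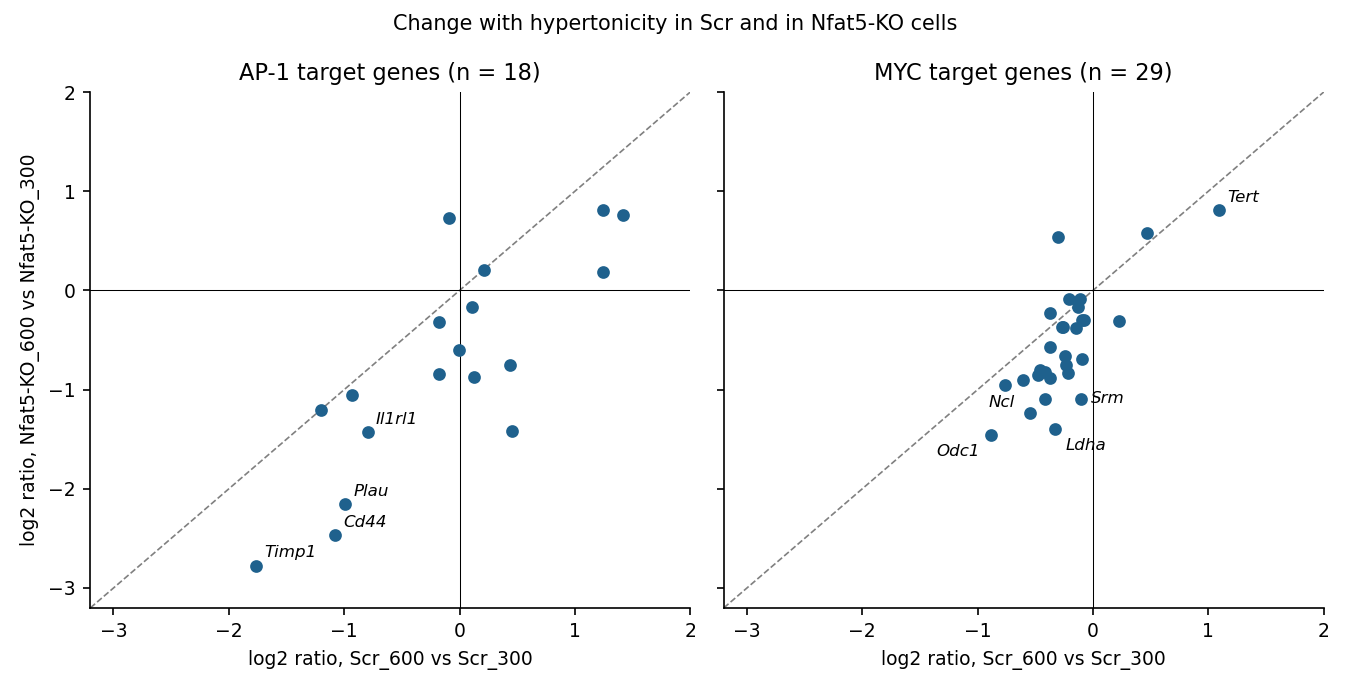
Log2 ratio of hypertonic to isotonic medium in Scr cells (horizontal) and in Nfat5-KO cells (vertical) for 18 AP-1 target genes and 29 MYC target genes, 1 point per gene, with the line of equal response dashed and Ereg left out as under the filter in Scr cells. Most points lie under the line, which means a lower response in Nfat5-KO cells, and Timp1, Cd44 and Plau lie lowest.

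The partners of these factors were counted in the same way. Of 14 genes of the MYC network compared, Mycn and Mxd4 were at least 2-fold higher with hypertonicity in Scr cells (4.81% of all genes), and Mxd1 and Mxd4 in Nfat5-KO cells (6.25%). The MYC antagonist Mxd4 had 2.57 and 6.90 FPKM in Scr_300 and Scr_600 and 2.09 and 9.31 FPKM in Nfat5-KO_300 and Nfat5-KO_600, log2 ratios of 1.39 and 2.10. Mxd1, of the same kind, had 1.63 FPKM in Nfat5-KO_600 and at most 0.738 FPKM elsewhere. Mxi1 had 5.18 FPKM in Scr_300 and 2.51 FPKM in Nfat5-KO_300. The median log2 ratio of the 14 with hypertonicity was 0.18 (Scr) and 0.27 (Nfat5-KO). Of 17 other basic leucine zipper genes compared, 2, the small MAF gene Maff and the C/EBP gene Cebpd, had log2 ratios past 2-fold, downward, for Nfat5-KO_600 against both Nfat5-KO_300 (4.11% of all genes) and Scr_600 (3.68%), and none was 2-fold changed in the remaining comparisons. In hypertonic Scr and Nfat5-KO cells Maff had 12.3 and 4.73 FPKM, and Cebpd had 3.24 and 1.37 FPKM. The medians of the 17 with hypertonicity were 0.16 (Scr) and -0.07 (Nfat5-KO).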

How the data were processed

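Paired-end reads of 12 libraries were cleaned of adapter, poly-N and low quality reads, mapped to GRCm38/mm10 with HISAT2 and counted per gene with HTSeq by the authors, whose versions and annotation release are not given in the sources used here. The deposited FPKM values, which the authors calculated from gene length and count, hold 1 value per gene and group. The way in which replicate libraries were merged is not given in the sources used here. Dividing by length makes levels of different genes comparable, and dividing by mapped reads makes each value relative to all others in its group.

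Of 54839 rows, 2436 without values, 311 exact duplicates and 37 symbols with several rows were left out. Log2 ratios of FPKM + 0.1 were taken for 4 comparisons, with 2-fold as the bound for a change. A ratio is printed for a gene if neither group was under 0.1 FPKM. The log2 ratios and the 2-fold call were first tested on simulated data, and the median-of-ratios factors on a small made-up example. The other steps were not tested in this way. No test was run, since there is 1 value per group. Gene positions come from GENCODE M21 (GRCm38) and promoters from RefSeq (GRCm38.p6). The 10 genes and the 8 lists of partners and targets were chosen with earlier results of these data known, and Maff, Gadd45a and Klf6 stand in 2 lists each. Of each list up to 5 genes with the largest ratio past 2-fold could be named, of lists with at most 8 genes any gene; not every gene that the rule allows is reported here. Hmox1 lies outside this rule, picked once its values had been seen. The 5 alternatives were median-of-ratios factors, a filter at a mean of 1 FPKM, no filter at all, and pseudocounts of 0.01 and 1. Software used: Python 3.11.15, matplotlib 3.10.9, pandas 2.3.3 and numpy 2.4.6.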

Additional observations from a re-analysis of the deposited data

How the results depend on the processing

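Over the 5 alternatives, 219 of 220 log2 ratios of the 9 genes kept their side of 2-fold and none of the 220 changed sign. The exception was the difference between genotypes in the response of Egr1, -0.76 with a pseudocount of 1, which left 1 gene past 2-fold there. Without a filter, 2 genes were past 2-fold in Nfat5-KO_600 against Scr_600, since Fosb then enters. The count of all genes at least 2-fold changed depended on the treatment of low genes. In Scr_600 against Scr_300 it was 375 with a pseudocount of 1, 1835 without a filter and 553 with a mean of at least 1 FPKM, against 992. In Nfat5-KO_600 against Nfat5-KO_300 it was 489, 2211 and 855, against 1346. In Nfat5-KO_300 against Scr_300 it was 135, 1228 and 259, against 530. In Nfat5-KO_600 against Scr_600 it was 338, 1884 and 548, against 972. For the difference between genotypes it was 304, 2149 and 463, against 944. Median-of-ratios factors changed no list's median in sign. No paired analysis was possible because the deposited columns hold 1 value per group, and for the same reason no library could be left out. One library or clone can therefore carry a group value, and low genes such as Fosb have no error.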

Other observations

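Other immediate early genes did not share 1 pattern. Of 30 compared in Scr_600 against Scr_300, 18 were lower, where 45.4% of all genes were higher, and 2 were at least 2-fold higher (4.81% of all genes). These were Sgk1, a kinase that stabilises epithelial sodium channels, with 0.262 FPKM in Scr_300 and 4.28 FPKM in Scr_600, and Arc, a target of serum response factor, with 3.43 and 22.2 FPKM. In Nfat5-KO cells Sgk1 had 0.444 FPKM in isotonic and 0.513 FPKM in hypertonic medium, and Arc 7.27 and 4.61 FPKM. In Nfat5-KO_600 against Nfat5-KO_300, 18 of 30 were lower, where 47.1% of all genes were higher. At least 2-fold lower were 5 of the 30 (4.11% of all genes), and 2 were at least 2-fold higher (6.25%). In Nfat5-KO_600 against Scr_600, 20 of 30 were lower (median log2 ratio -0.38), where 47.8% of all genes were higher. Of the 30, 4 were at least 2-fold lower (3.68% of all genes) and 4 at least 2-fold higher (3.76%). Cyr61, a matricellular gene that YAP and serum response factor drive, had 38.4 and 9.85 FPKM in hypertonic Scr and Nfat5-KO cells. Klf2, a zinc finger factor best known from endothelium, had 0.404 and 1.50 FPKM there. Gadd45b, a stress gene, was highest in Nfat5-KO_300 at 130.8 FPKM and lowest in Nfat5-KO_600 at 35.2 FPKM, as Cd44 and Plau were.

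Among 24 genes of serum response factor, its cofactors and the MAP kinases, 1 was at least 2-fold changed with hypertonicity, in Scr cells (7.67% of all genes) and in Nfat5-KO cells (10.4%). Mkl1, a cofactor of serum response factor, had 11.1 and 29.9 FPKM in Scr_300 and Scr_600 and 6.93 and 21.1 FPKM in Nfat5-KO_300 and Nfat5-KO_600. The medians of the 24 with hypertonicity were 0.09 (Scr) and -0.11 (Nfat5-KO), and -0.10 between the genotypes at each osmolality.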
